A study of Mus musculus with 12 samples.

Results

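The choroid plexus is the secretory epithelium of the brain ventricles, and its genes were followed here in mouse cerebellum. The set holds 10 genes, Ttr, Kcnj13, Clic6, Kl, Sostdc1, Otx2, Enpp2, 1500015O10Rik, Ace and Htr2c, which were selected on their levels in these same data, and all 10 have a row among the 7667 named genes of the table. The cerebella came from fxSCA7 92Q mice, which carry 92 CAG repeats in the ataxin-7 gene to model spinocerebellar ataxia type 7, and from wild-type littermates. Both genotypes were taken at 12 weeks and at 29 weeks, which gives 4 conditions. Each condition had 3 libraries of total RNA, each from the pooled tissue of 3 mice, so 9 mice stand behind a condition. The labels do not say which promoter drives the expanded allele, of which sex the pooled mice were, or how the lining of the ventricle was handled at dissection.

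The deposited table gives 1 whole-number normalized score per gene and condition. No value per library was available to this work, so the spread between libraries is unknown, no test was made, and higher and lower describe 4 values per gene. The read depth behind a score is unknown as well. Rounding is the one error that can be computed, and it is given as the range a ratio spans when each score is moved by 0.5. Log2 ratios are on the log2(score + 1) scale, which understates differences of low genes, and were computed when one or both conditions reached 5. Folds are taken from these ratios, so they are not quotients of the printed scores and are smaller for low genes. In bulk tissue, more choroid plexus cells and more RNA per cell cannot be told apart.

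As background, the choroid plexus of the fourth ventricle lies directly beneath the cerebellum. Its epithelium secretes cerebrospinal fluid, carries thyroid hormone with transthyretin, and releases growth factors and enzymes into the fluid. Some genes of the set are used elsewhere in the cerebellum too. Enpp2 is also made by oligodendrocytes, Kl by Purkinje cells, Ace by endothelium, Otx2 by granule neurons of the posterior lobules, and Htr2c by neurons.

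The set had a shared order. In 9 of the 10 genes the younger 92Q score was the lowest and the older 92Q score the highest, with both wild-type scores in between. Otx2 was the exception, with equal scores in both genotypes at 12 weeks. Over all named genes 271 of 7667, or 3.53%, had this order. The members were selected on these scores, so the share describes the set and supports nothing further.

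Ttr encodes transthyretin, the thyroid hormone and retinol carrier that is the most characteristic product of this epithelium. It was 336 in wild type and 6 in 92Q at 12 weeks, and 445 in wild type and 1403 in 92Q at 29 weeks. The 92Q scores thus lay on opposite sides of wild type at the 2 ages, while the wild-type scores lay closer to each other than the 92Q scores did. The log2 ratio of 92Q to wild type was -5.59 at 12 weeks (rounding range -5.70 to -5.49) and 1.65 at 29 weeks (1.65 to 1.66). Within 92Q, Ttr was 201-fold higher at 29 than at 12 weeks on the score + 1 scale, the highest age ratio of the 7667 genes compared. In wild type the age difference was 1.32-fold, rank 45 from the highest of 7663 genes compared. Ttr was the only member in the authors' deposited table of 99 genes, with the same 4 scores.

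**Figure D1:**
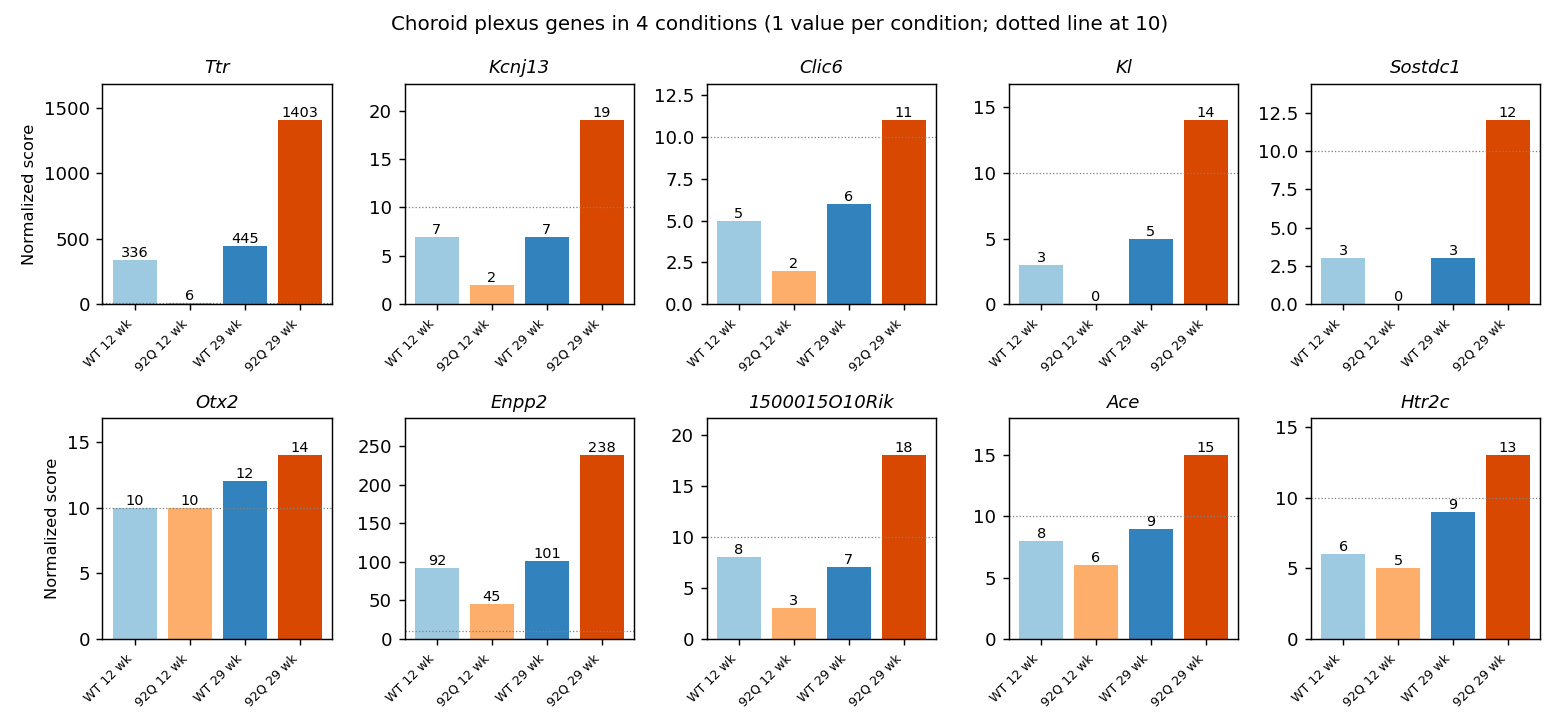
Normalized score (y axis, from 0, own scale per gene) of each choroid plexus gene in wild type (WT) and 92Q cerebellum at 12 and 29 weeks; each bar is the authors' single value for a condition and the dotted line marks 10. The 92Q bar at 29 weeks is the tallest in all 10 panels, from 11 for Clic6 to 1403 for Ttr, and the 92Q bar at 12 weeks is the shortest in all panels except that of Otx2.

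Taken first are an ion channel, a chloride channel family protein and a receptor. Kcnj13 encodes the inward rectifier potassium channel Kir7.1 of the epithelium's apical face. It scored 7 in wild type and 2 in 92Q at 12 weeks, and 7 in wild type and 19 in 92Q at 29 weeks, so the wild-type scores were equal and only the 92Q scores differed with age. Its log2 ratios were -1.42 (-1.77 to -1.10) and 1.32 (1.20 to 1.45). Clic6, of the chloride intracellular channel family, scored 5 and 2 at 12 weeks and 6 and 11 at 29 weeks, in wild type and 92Q respectively. The ratios of Clic6 were -1.0 (-1.38 to -0.65) and 0.78 (0.62 to 0.94), the smaller of the pair at both ages. Htr2c, the serotonin 2C receptor, scored 6 and 5 at 12 weeks and 9 and 13 at 29 weeks. The Htr2c ratio at 12 weeks (-0.22) had a rounding range of -0.45 to 0.00, so its lower score there was not separable from rounding, and at 29 weeks it was 0.49 (0.36 to 0.61).

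Secreted proteins and enzymes came next. Enpp2 encodes autotaxin, the secreted enzyme that makes lysophosphatidic acid, and had the highest scores of the set after Ttr. It scored 92 in wild type and 45 in 92Q at 12 weeks, and 101 and 238 at 29 weeks. These were 2.02-fold lower and 2.34-fold higher in 92Q, with log2 ratios of -1.02 (-1.04 to -0.99) and 1.23 (1.22 to 1.24). The score of 45 in the condition where Ttr was 6 shows that Enpp2 RNA was present with little Ttr RNA. The gene 1500015O10Rik, now named Ecrg4, encodes the secreted peptide precursor augurin. It scored 8 and 3 at 12 weeks and 7 and 18 at 29 weeks, with ratios of -1.17 (-1.44 to -0.92) and 1.25 (1.12 to 1.38). Its wild-type scores differed by 1, within rounding.

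Ace, the angiotensin-converting enzyme, scored 8 in wild type and 6 in 92Q at 12 weeks, and 9 and 15 at 29 weeks. Its ratio of -0.36 (-0.55 to -0.18) at 12 weeks was under 1.5-fold, and that of 0.68 (0.56 to 0.80) at 29 weeks was above it, with a rounding range that reaches under the threshold. Kl encodes klotho, a co-receptor for the hormone FGF23 whose shed form circulates in cerebrospinal fluid. Kl scored 3 in wild type and was listed at 0 in 92Q at 12 weeks, and scored 5 and 14 at 29 weeks. Sostdc1, a secreted inhibitor of BMP and Wnt signalling, also scored 3 in wild type and was listed at 0 in 92Q at 12 weeks, with 3 and 12 at 29 weeks. Neither Kl nor Sostdc1 reached 5 at 12 weeks, and no fold is given against a score of 0. At 29 weeks their log2 ratios were 1.32 (1.16 to 1.49) and 1.70 (1.47 to 1.95).

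Otx2, the homeodomain transcription factor of the choroid plexus lineage, stood apart from the rest. It scored 10 in both genotypes at 12 weeks, and 12 in wild type and 14 in 92Q at 29 weeks, with a ratio of 0.21 (0.10 to 0.31) at that age. Its scores stayed between 10 and 14 while those of Ttr ran from 6 to 1403. Granule neuron markers, the other cerebellar cells known for Otx2, scored below wild type in 9 of 12 and above it in 2 in older 92Q mice, with a median of -0.10 on the log2 scale.

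Promoter sequence was read for the members. RefSeq promoter windows on GRCm38.p6, the assembly of mm10, were found for 6 of the 10 members: 1500015O10Rik (as Ecrg4), Kcnj13, Kl, Ace, Otx2 and Htr2c. The 10 windows of these 6 genes, each from 250 bases before to 50 after a start, were searched on both strands for 3 motifs. The core of OTX2 sites, TAATCC, was found in 2 of the 10, the upstream one of Ace's windows and 1 of Otx2's, against 7.06% of 32851 windows of the same length. The core of FOXJ1 sites, GTAAACA, was found in 0 of the 10, against 3.65% of all windows. An E-box, spelled CACGTG, was found in 0 of them as well, against 7.15%. Such a match is a stretch of letters and no evidence of binding, and its absence concerns these windows alone. Shown are the 250 bases before the start of 3 genes with the shared order, on the strand of the gene, with the TAATCC match in capitals. In Ace (chr11:105967698-105967947, plus strand) it begins 27 bases before the start. Kcnj13 (chr1:87394730-87394979, minus strand) and 1500015O10Rik (chr1:43730352-43730601, plus strand) hold none.
Ace: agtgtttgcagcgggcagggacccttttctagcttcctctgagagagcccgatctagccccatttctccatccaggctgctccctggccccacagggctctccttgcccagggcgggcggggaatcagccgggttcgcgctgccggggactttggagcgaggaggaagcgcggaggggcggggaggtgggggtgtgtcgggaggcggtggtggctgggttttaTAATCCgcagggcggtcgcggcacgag
Kcnj13: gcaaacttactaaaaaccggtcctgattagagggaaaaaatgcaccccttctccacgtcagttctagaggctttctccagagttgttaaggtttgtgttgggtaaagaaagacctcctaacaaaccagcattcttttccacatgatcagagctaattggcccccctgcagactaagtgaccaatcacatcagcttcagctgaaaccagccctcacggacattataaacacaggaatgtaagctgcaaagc
1500015O10Rik: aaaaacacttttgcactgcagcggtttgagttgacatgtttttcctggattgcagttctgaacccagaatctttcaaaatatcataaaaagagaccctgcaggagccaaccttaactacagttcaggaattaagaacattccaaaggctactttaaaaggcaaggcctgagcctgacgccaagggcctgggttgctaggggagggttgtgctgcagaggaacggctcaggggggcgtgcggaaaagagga

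At 12 weeks, 5 of the 8 members that reached 5 in one or both genotypes were at least 1.5-fold lower in 92Q, against 0.17% of the 7660 genes compared. The other 3 were Otx2, Ace and Htr2c. The median log2 ratio was -1.01, beside 0.00 over all genes. At 29 weeks 8 of 10 members were at least 1.5-fold higher in 92Q, against 0.535% of 7666 genes, with a median of 1.24 beside 0.00. Otx2 and Htr2c fell short of 1.5-fold. Both genotype comparisons were used to choose the members, so nothing is read from these shares.

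**Figure D2:**
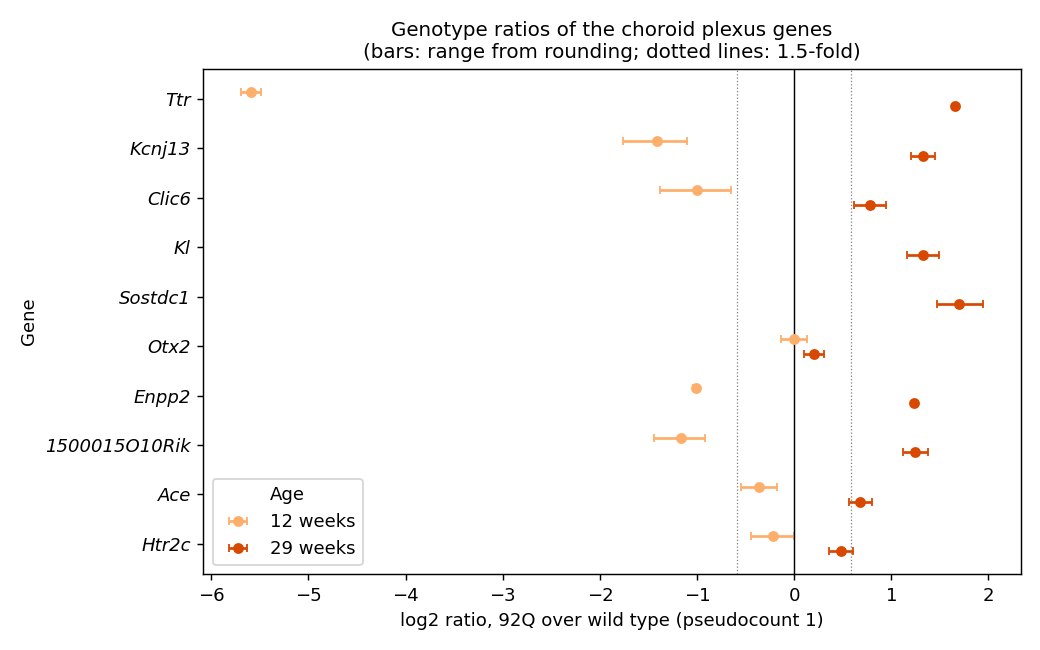
Log2 ratio of 92Q over wild type (x axis, pseudocount 1) for each choroid plexus gene (y axis) at 12 weeks (light) and 29 weeks (dark); horizontal bars are the ranges that rounding allows and dotted lines mark 1.5-fold. Ratios at 12 weeks lie at or below 0, down to -5.59 for Ttr, and those at 29 weeks lie above 0; Kl and Sostdc1 have no point at 12 weeks because neither genotype reached 5.

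Age comparisons use the same 4 columns and are not separate evidence. In 92Q, 9 of 10 members were at least 1.5-fold higher at 29 than at 12 weeks, against 0.978% of 7667 genes, with Otx2 at 1.36-fold. The median log2 ratio was 2.31, or 2.12 over the 8 members that were not listed at 0. On the score + 1 scale, Enpp2 was 5.20-fold, Kcnj13 6.67-fold, 1500015O10Rik 4.75-fold and Clic6 4.00-fold higher. Htr2c and Ace were closer, at 2.33-fold and 2.29-fold.

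In wild type the genes of the set varied far less with age. There 1 of 9 members compared reached 1.5-fold higher, against 0.222% of 7663 genes. That member was Kl, at 5 against 3, a difference of low scores whose log2 ratio of 0.58 had a rounding range of 0.29 to 0.89. The median was 0.22, beside 0.00 over all genes, and 1500015O10Rik was the only member with a lower score at 29 weeks. By score, the 2 wild-type conditions were the closest pair for Ttr, Kcnj13, Clic6, Kl, Sostdc1, Enpp2, 1500015O10Rik and Ace.

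A row in this table needed a score of 10 in some condition: no named gene had a highest score under 10. Kcnj13, Clic6, Kl, Sostdc1, 1500015O10Rik, Ace and Htr2c reached 10 only in 92Q at 29 weeks, 7 of the 10 members. These 7 could therefore only be higher in that condition. Ttr reached 10 in 3 conditions, and Enpp2 and Otx2 in all 4. Among all named genes 143, or 1.87%, reached 10 only in 92Q at 29 weeks, against 41 only in wild type at 12 weeks, 38 only in wild type at 29 weeks and 21 only in 92Q at 12 weeks. The highest of the 7 was Kcnj13 at 19, and the lowest was Clic6 at 11, the member nearest to having no row. Among the 3 members whose row did not depend on that condition, Ttr and Enpp2 showed the shared order and Otx2 did not.

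Ttr served as a scale for the other members. The 12-week and the 29-week genotype comparisons share no condition, so the difference of a gene was divided by the difference of Ttr in each. Enpp2 differed by 47 for a Ttr difference of 330 at 12 weeks, and by 137 for 958 at 29 weeks. That is 14.2 units of Enpp2 (rounding range 13.9 to 14.6) and 14.3 units (14.2 to 14.4) per 100 units of Ttr, although the difference had opposite signs at the 2 ages. Ace gave 0.606 (0.302 to 0.912) and 0.626 (0.521 to 0.731). Kl and Sostdc1 each gave 0.909 (0.604 to 1.21) and 0.939 (0.834 to 1.04). Kcnj13 gave 1.52 (1.21 to 1.82) and 1.25 (1.15 to 1.36), and Clic6 0.909 (0.604 to 1.21) and 0.522 (0.417 to 0.627).

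The rounding ranges of the 2 ages overlapped for all 9 members beside Ttr. Outside the set they overlapped for 1 of 53 genes that spanned at least 2-fold over the 4 conditions, Fam163b. That gene gave 0.303 (0.00 to 0.608) and 0.522 (0.417 to 0.627). At 12 weeks these ranges are wide for every member except Enpp2, since differences of 0 to 5 score units stand behind them, and overlap there says little. The members were selected on these scores, so the overlap is a description. Between the wild-type conditions, 29 against 12 weeks, Ttr differed by 109, which leaves wide ranges for low genes. Enpp2 differed there by 9, or 8.26 (7.27 to 9.26) per 100 units of Ttr, below both genotype values. Clic6 and Ace each gave 0.917 (0.00 to 1.85), Kl 1.83 (0.909 to 2.78) and Sostdc1 0.00 (-0.926 to 0.926), ranges that overlap both genotype ranges of the same gene. Kcnj13, at 0.00 (-0.926 to 0.926), and 1500015O10Rik, at -0.917 (-1.85 to 0.00), lay below their genotype ranges, and Otx2, at 1.83 (0.909 to 2.78), and Htr2c, at 2.75 (1.82 to 3.70), above theirs.

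**Figure D3:**
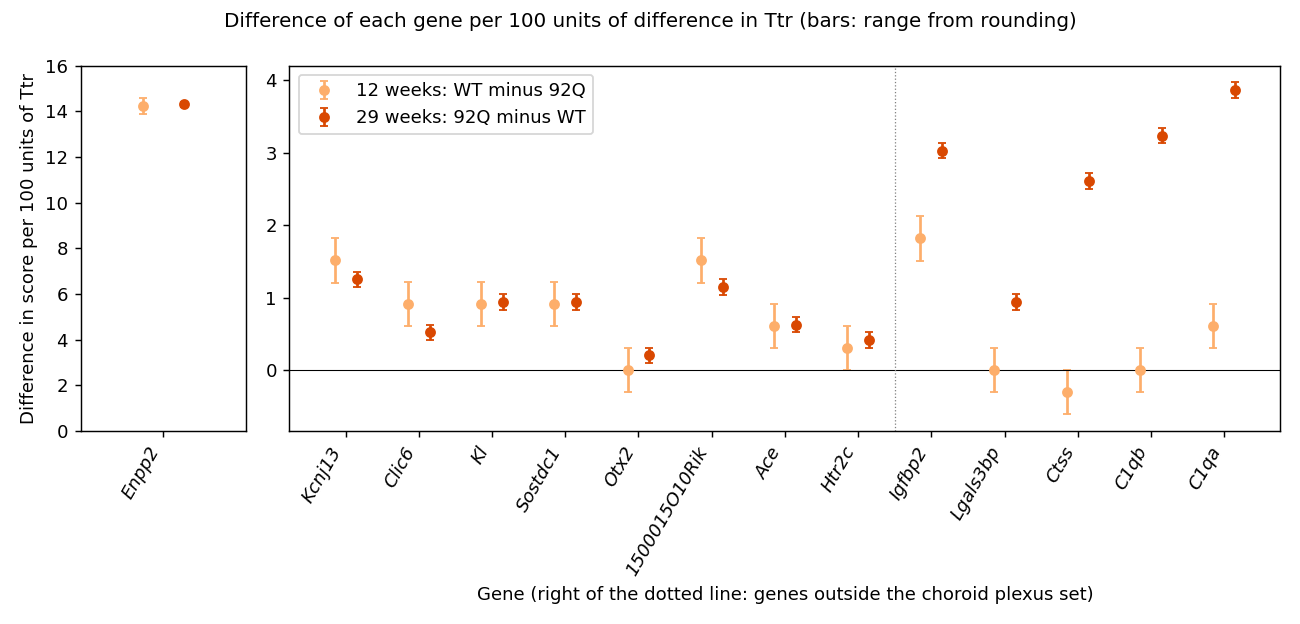
Difference of each gene between genotypes per 100 units of difference in Ttr (y axis, score units), wild type minus 92Q at 12 weeks (light) and 92Q minus wild type at 29 weeks (dark), with ranges that rounding allows; Enpp2 has its own axis. The ranges at the 2 ages overlap for the choroid plexus genes (14.2 and 14.3 for Enpp2). Igfbp2, Lgals3bp, Ctss, C1qb and C1qa, right of the dotted line, have higher values at 29 weeks. Fam163b, a gene outside the set with overlapping ranges, is not shown.

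Likeness to Ttr was also measured as the Pearson correlation of log2(score + 1) over the 4 conditions, as a description, among the 62 genes that spanned at least 2-fold. Of the 10 genes most like Ttr 8 were members, with r of 0.97 for Kl, 0.96 for Clic6 and Sostdc1, 0.95 for Kcnj13, 0.92 for 1500015O10Rik and Enpp2, 0.86 for Ace and 0.83 for Htr2c. The members were selected on these same 4 scores, and 7 have a row only through their score in 92Q at 29 weeks, so their r was in part fixed by the choice. Otx2 did not span 2-fold, and its r was 0.72. The other 2 of these 10 were the small nucleolar RNA AF357426 (r = 0.89), which was listed at 0 in 92Q at 12 weeks but scored only 100 in 92Q at 29 weeks, and Fam163b (r = 0.80), at 10 and 9 at 12 weeks and 15 and 20 at 29 weeks. Igfbp2, an insulin-like growth factor binding protein that choroid plexus and meninges both make, followed with r = 0.78. Then came Lgals3bp, Ctss, C1qb, C1qa, Tmem176a, Trem2 and Mpeg1, from 0.69 to 0.63. Among them are the complement genes C1qa and C1qb, which microglia express: C1qa scored 25 in wild type and 23 in 92Q at 12 weeks and 26 and 63 at 29 weeks. Per 100 units of Ttr, C1qa differed by 0.606 (0.302 to 0.912) at 12 weeks and by 3.86 (3.75 to 3.97) at 29 weeks, ranges that do not overlap.

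In ratio, further genes of the choroid plexus were far less apart. Of 35 other genes listed for this epithelium, 9 had a row, and the others, among them the folate receptor Folr1, the channel subunit Kcne2 and the water channel Aqp1, had no row in the table used here. At 12 weeks 5 of the 9 were lower in 92Q and 0 higher, and at 29 weeks 8 were higher and 0 lower, with medians of -0.08 and 0.24. None of the 9 reached 1.5-fold in either genotype comparison. At 12 weeks the 9 summed to 186 in wild type and 175 in 92Q, where Ttr scored 336 and 6. Their use by other cerebellar cells was not tested, so they may not report on this epithelium alone. The carbonic anhydrase Car14 came closest, at 14 in both genotypes at 12 weeks and 15 in wild type against 22 in 92Q at 29 weeks (log2 ratio 0.52). Cab39l scored 19 and 24 and the copper transporter Slc31a1 12 and 15 at 29 weeks. For a like difference in score, a ratio is smaller where scores are higher. Cab39l had a log2 ratio of 0.32 at 29 weeks, and the member Clic6, at 6 and 11, one of 0.78. Ratios of these genes and of the low-scoring members are therefore not on an equal footing. Of the 11 measured genes for fluid secretion, which include Car14, 4 scored above and 5 below wild type in older 92Q mice (median 0.00).

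Most pathway partners of the members differed little. Of 10 measured genes of thyroid hormone uptake and action, 7 scored above and 1 below wild type in older 92Q mice (median 0.09). At that age 1 of the 10 was at least 1.5-fold higher, against 0.535% of 7666 genes, and 0 were at 12 weeks. That gene reached 10 only in 92Q at 29 weeks, so it could only be higher there. The lysophosphatidic acid receptor Lpar1 scored between 19 and 20 in all 4 conditions, where Enpp2 ran from 45 to 238. BMP and Wnt genes had a median of 0.11 over 9, FGF receptor and phosphate transport genes -0.05 over 5, and the angiotensinogen gene Agt scored 113 in wild type against 121 in 92Q at 29 weeks. None of the measured lysophosphatidic acid, BMP and Wnt, FGF and phosphate, or angiotensin genes reached 1.5-fold in either direction in the genotype comparisons.

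Markers of neighbouring tissue moved in part with the set. Of 24 meningeal genes 11 had a row. In 92Q 8 of these were lower and 2 higher at 12 weeks (median -0.24), and 9 were higher and 1 lower at 29 weeks (median 0.22), 2 of them by at least 1.5-fold. Igfbp2 scored 23 in wild type and 17 in 92Q at 12 weeks and 23 and 52 at 29 weeks, and Igf2, also known from choroid plexus, 51 and 44, then 49 and 77. Slc13a4 scored 9 and 6, then 9 and 12, and Aebp1 9 and 7, then 9 and 12. The summed meningeal score was 1746 in wild type and 1425 in 92Q at 12 weeks and 1547 and 1766 at 29 weeks, most of it Ptgds. The part of carried-along meninges or choroid plexus in the result was not tested.

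Other cell types gave these values. Ependymal genes, of which 3 of 16 had a row, summed to between 88 and 101 in all conditions, with the cilia factor Foxj1 at 8, 8, 8 and, in 92Q at 29 weeks, 11. Red blood cell genes (3 rows) summed to between 126 and 133 in 3 conditions and to 179 in 92Q at 29 weeks. In 92Q 1 was higher and 1 lower at 12 weeks (median 0.00). At 29 weeks 3 of 3 were higher (median 0.52), 1 of them by at least 1.5-fold, against 0.535% of 7666 genes. None of the 6 measured genes of endothelium, which also makes Ace, reached 1.5-fold at either age. Genes of oligodendrocytes, which also make Enpp2, were lower in 92Q in 12 of 15 at 12 weeks and higher in 11 of 15 at 29 weeks, with medians of -0.11 and 0.16 and none at 1.5-fold. Their summed score ran from 4119 in 92Q at 12 weeks to 4696 in 92Q at 29 weeks. Genes of Purkinje cells, which also make Kl, were lower in 92Q in 10 of 10 at both ages (medians -0.27 and -0.64). Genes listed for neurons outside the cerebellum had 4 rows, 1 of them Calb2, which the granule neuron list holds too. Their use by cerebellar cells was not tested. They were lower in 92Q in 4 of 4 at 12 weeks (median -0.18), and at 29 weeks 2 were higher and 1 lower (median 0.03), the lower one being Th, the dopamine synthesis enzyme tyrosine hydroxylase, at 11 in wild type and 5 in 92Q. The part of any of these cell types in the members' scores was not tested.

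**Figure D4:**
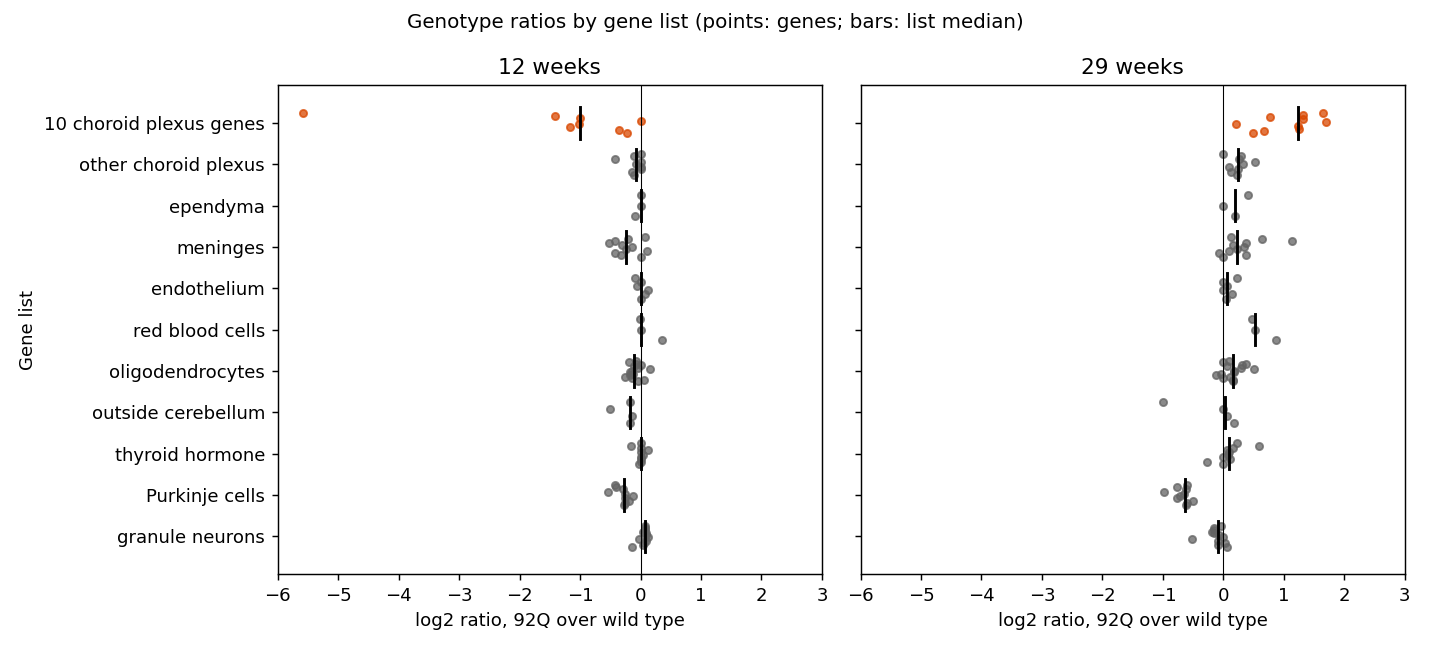
Log2 ratio of 92Q over wild type (x axis) by gene list (y axis) at 12 weeks (left) and 29 weeks (right); points are single genes and vertical bars are list medians. The 10 choroid plexus genes have medians of -1.01 and 1.24, the other choroid plexus genes -0.08 and 0.24, and the meningeal genes -0.24 and 0.22.

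Makeup of the pools differed between conditions in a further respect. Xist, the X-inactivation transcript of female cells, scored 66 in wild type and 30 in 92Q at 12 weeks and 63 and 25 at 29 weeks, and the Y-linked Eif2s3y 0 and 12, then 6 and 15. The part of the pools' sex makeup in the members' scores was not tested. The library number of 1 of the 3 libraries of 92Q at 29 weeks stands apart from those of the other libraries of that age, and its share in the condition's scores cannot be separated. Library numbers of the 12-week and the 29-week libraries do not overlap, so in the age comparisons library number and age cannot be told apart.

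Gene positions bear on how reads could be assigned. Kcnj13 (chr1:87386363-87394729, mm10, GENCODE M21) lies inside Gigyf2 on the opposite strand, and their annotated exons overlap. Gigyf2 scored 16, 16 and 16 in wild type at 12 weeks and in 92Q at 12 and 29 weeks, and 15 in wild type at 29 weeks. The part of shared reads in the Kcnj13 scores was not tested. Enpp2 (chr15:54838901-54952892), Otx2 (chr14:48657677-48673819) and Ace (chr11:105967945-105989964) share exon sequence with noncoding genes on the opposite strand that have no row in the table used here. Otx2 also shares exon sequence with Gm49154 on the same strand, which has no row either. The part of shared reads in the scores of these genes was not tested. Kl (chr5:150952607-150993817) and Sostdc1 (chr12:36314139-36318452) overlap no other annotated gene. Clic6 lies at chr16:92485736-92541243, 1500015O10Rik at chr1:43730602-43742578 and Htr2c at chrX:146962513-147197277, and all 9 of these genes are protein coding.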

How the data were processed

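Per the labels' protocols, cerebellar total RNA went through TRIzol and an RNeasy kit into TruSeq libraries, which an Illumina HiSeq read single-end. Bowtie 0.12.7, SAMtools 0.1.12a, Cuffdiff 1.3.0 and the build mm10 are named in the submitters' processing notes, without role or order. Each deposited value is a normalized score, given as a whole number for a gene in a condition; the labels name no unit. The 3 libraries of a condition were thus combined by the authors. All 4 columns had a median of 22. Of 7684 rows, 17 with a number in place of a gene name were left out, which left 7667.

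Log2 ratios used a pseudocount of 1 and a minimum of 5 in one or both conditions (Python 3.11.15, pandas 2.3.3, numpy 2.4.6), and genes were counted at 1.5-fold. The ratio step was tested on simulated columns, with fold changes placed only on genes whose starting score was at least 10. The test thus did not cover lower starting scores, where most members lie. No p-value was computed, since limma, planned for values per library, had none to use. Members and 16 further lists were chosen with earlier results of these data known. Named were all members, the 10 other genes most like Ttr, and of the lists up to 4 genes with the largest 29-week ratio and those at 10 only in 92Q at 29 weeks, except 1 gene that is not reported here; Lpar1, Agt, Ptgds, Gigyf2, Xist, Eif2s3y and the genes without a row were added beside that rule. Positions came from GENCODE M21 and promoters from RefSeq. Alternatives were other pseudocounts, minimum values, column scalings and a threshold of 2-fold.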

Additional observations from a re-analysis of the deposited data

Results flagged for a closer look

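Ttr, Kcnj13, Clic6, Enpp2 and 1500015O10Rik were at least 1.5-fold lower in 92Q at 12 weeks and at least 1.5-fold higher in 92Q at 29 weeks. The genotype log2 ratio at 29 weeks exceeded that at 12 weeks by 7.24 for Ttr, 2.74 for Kcnj13, 2.42 for 1500015O10Rik, 2.24 for Enpp2 and 1.78 for Clic6. Each condition has 1 score per gene, so this difference between ages was not tested. Over all genes 9 showed opposite genotype differences of at least 1.5-fold at the 2 ages, and the other 4 were the short noncoding RNAs DQ267102, Gm12238, AF357399 and AF357425.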

How the results depend on the processing

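With a pseudocount of 5 the median log2 ratio of the choroid plexus genes was -0.608 for 92Q against wild type at 12 weeks, 0.932 at 29 weeks and 1.64 for age in 92Q; with a pseudocount of 0.1 the last was 2.47. With a minimum of 10 in one or both conditions, 2 members remained at least 1.5-fold lower at 12 weeks, Ttr and Enpp2. The 1 member at 1.5-fold with age in wild type became 0 with a pseudocount of 5, a minimum of 10 or a threshold of 2-fold. Restricted to the 3 members at 10 or more in another condition than 92Q at 29 weeks, a choice made after seeing the data, 2 were at least 1.5-fold lower at 12 weeks, 2 higher at 29 weeks, 2 higher with age in 92Q and 0 higher with age in wild type. Without members listed at 0, also chosen after seeing the data, the median for age in 92Q was 2.12. On the linear scale 7 of the 10 genes most like Ttr were members. Scaling of the columns by median ratios or upper quartiles changed none of the medians beyond rounding and no count by over 1.5 times. Of 211 ratios of single members under alternatives, 172 stayed within the rounding range, 39 moved out of it, 32 of these with another pseudocount, and 0 changed sign where the ratio had reached 1.5-fold. No paired analysis was possible because each condition has 1 combined score, and for the same reason no library could be left out. Depth is unknown, so scores under 10 have an error beyond rounding that cannot be stated.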
